A study of Homo sapiens with 6 samples.

Results

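The genes described here are SQOR, ETHE1, SUOX, TST, CBS, CTH, MPST and CDO1. They belong to the routes that make or oxidize hydrogen sulfide, except CDO1, which draws cysteine away from them. They were chosen by pathway membership and because SQOR was higher after silencing of RIPK4 in the libraries described here, so the values of SQOR in this comparison selected the list and are given as a description. Its p-value is not given, and where it appears in a count of called genes nothing is read from it. All 8 genes were found among the 24526 genes measured, and all 8 were among the 16297 genes with enough counts to be tested.

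The cells, WM266.4, are a long-established line from a human melanoma. The study silenced the kinase gene RIPK4 in them by transient transfection of 1 RIPK4-specific Silencer Select siRNA (RIPK4.si, 3 libraries) and used a Silencer Select negative control siRNA for comparison (neg.si, 3 libraries). RNA was taken 48 h after transfection, and poly(A)-enriched RNA was sequenced in bulk to ask which transcripts changed. The p-values given here measure only the spread between these 6 libraries.

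Hydrogen sulfide is a toxic gas that cells also make themselves from sulfur amino acids. CBS and CTH, enzymes of the transsulfuration pathway, release it from cysteine and homocysteine, and MPST forms a persulfide from mercaptopyruvate that can yield it. In mitochondria SQOR, a flavoprotein of the inner membrane, oxidizes sulfide, passes the electrons to coenzyme Q and hands the sulfur on as a persulfide. ETHE1 oxidizes glutathione persulfide to sulfite, SUOX turns sulfite into sulfate, and TST, also called rhodanese, moves sulfane sulfur between persulfides, sulfite and thiosulfate. CDO1 draws cysteine away from these routes by oxidizing it to cysteine sulfinate, a precursor of taurine.

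The neg.si libraries, in the order of replicates 1, 2 and 3, held 31688095, 30539087 and 30056850 counted read pairs. For RIPK4.si, in the same order, there were 28464057, 30751441 and 30772817. RNA levels are given as CPM, which are counts relative to the library size scaled by TMM, and group values as mean ± SD (n = 3). RIPK4 itself was measured at 85.8, 76.5 and 54.7 CPM in the neg.si libraries and at 19.9, 16.7 and 21.5 CPM in the RIPK4.si libraries. Every RIPK4.si library was below every neg.si library, which is the direction the labels give. The log2 fold change of RIPK4 was -1.90 ± 0.20 (SE), with an adjusted p of 0.0102 in edgeR's quasi-likelihood test and from 1.25e-13 in DESeq2 to 0.106 over the alternatives. The call was lost without neg.si replicate 2 (0.106) or without RIPK4.si replicate 1 (0.0940), 2 (0.0622) or 3 (0.0725).

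The neg.si libraries differed among themselves. On the first principal component, which held 44.9% of the variance of log2 CPM, neg.si replicate 3 stood at 56.1 and RIPK4.si replicate 2 at -41.5, and the component did not separate the groups. Across genes, a library's deviation from the mean had a rank correlation with transcript GC content of 0.555 in neg.si replicate 1, 0.0815 in neg.si replicate 2 and -0.547 in neg.si replicate 3. In the RIPK4.si libraries the same correlation was -0.0525, 0.165 and -0.0788. GC-rich genes therefore read high in neg.si replicate 1 and low in neg.si replicate 3, and values with this trend removed are given below for some of the genes.

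SQOR (GRCh38 chr15:45631148-45691281, plus strand) was measured at 7.01, 8.26 and 6.99 CPM in neg.si replicates 1, 2 and 3. In RIPK4.si replicates 1, 2 and 3 it was measured at 22.2, 28.7 and 22.5 CPM. The lowest RIPK4.si library was above the highest neg.si library, and the neg.si libraries lay close together. The group means were 7.42 ± 0.728 CPM and 24.5 ± 3.68 CPM (SD, n = 3 each), a 3.30-fold difference, with a log2 fold change of 1.72 ± 0.18 (SE). Behind these values stood raw counts of 217, 248 and 222 in neg.si and of 651, 829 and 699 in RIPK4.si. With the GC trend removed the levels were 7.01, 8.22 and 6.79 CPM against 21.3, 30.8 and 22.5 CPM. SQOR transcripts have a GC content of 48.9%, and its values followed the tilt of the neg.si libraries little. In bulk RNA a difference in the number of cells that express a gene cannot be told apart from a difference in RNA per cell. In GENCODE release 44 a protein-coding gene model without a symbol, which the counted table does not list, shares 881 exon bases with SQOR on the same strand. How reads on those bases were counted was not examined.

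**Figure D1:**
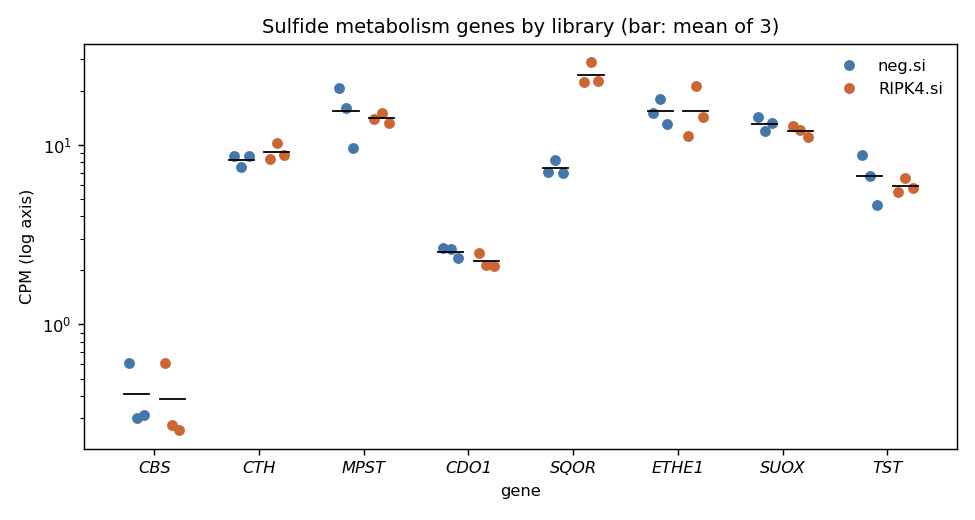
Level of each gene in CPM on a log axis, with 1 point per library and a bar at the mean of the 3 libraries of a group. For SQOR the RIPK4.si points, from 22.2 to 28.7 CPM, all lie above the neg.si points, from 6.99 to 8.26 CPM, whereas the points of both groups overlap for the other 7 genes.

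RefSeq promoters of 300 bases on GRCh38.p14 were found for 6 of the 8 genes, SQOR, ETHE1, SUOX, CBS, CTH and CDO1. That of SQOR is shown because SQOR is the gene that differed, and that of ETHE1 because its product acts next in the same pathway and its RNA did not differ detectably. The SQOR window is chr15:45634779-45635078 on the plus strand, and it lies inside the longer gene model of the deposited table. The ETHE1 window is chr19:43527152-43527451 on the minus strand, over the start of the gene. Capitals mark matches to the motifs searched on both strands.
SQOR: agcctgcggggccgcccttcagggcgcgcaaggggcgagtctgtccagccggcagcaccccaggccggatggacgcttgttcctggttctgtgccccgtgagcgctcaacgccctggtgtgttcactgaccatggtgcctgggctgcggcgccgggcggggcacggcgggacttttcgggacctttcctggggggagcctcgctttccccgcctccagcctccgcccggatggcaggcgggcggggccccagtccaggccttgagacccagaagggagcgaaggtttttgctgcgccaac
ETHE1: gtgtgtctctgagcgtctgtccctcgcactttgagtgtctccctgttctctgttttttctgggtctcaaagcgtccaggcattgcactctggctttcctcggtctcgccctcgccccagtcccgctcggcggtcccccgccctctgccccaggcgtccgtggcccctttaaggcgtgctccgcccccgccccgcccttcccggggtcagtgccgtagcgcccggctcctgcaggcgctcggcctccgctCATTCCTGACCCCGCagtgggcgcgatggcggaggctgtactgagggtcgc

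The motifs searched were the antioxidant response element core TGACNNNGC, the amino acid response element TGATGNAA, the palindromic E-box CACGTG, the ETS site CCGGAAG and the TEAD site GGAATG. Of all 35116 promoters of this length, 13.3% held the first, 3.62% the second, 7.26% the E-box, 10.3% the ETS site and 14% the TEAD site. None of these letter strings was in the SQOR window, which says only that these letters are not in these 300 bases. The ETHE1 window held the TEAD site and, next to it with no base shared, the antioxidant core. The SQOR window had a GC content of 70.7% and 26 CpG, against medians of 58.7% and 14 over all promoters. The ETHE1 window, at 68.3% and 28 CpG, was alike in this. Windows of CTH (61.7%, 26 CpG) and CDO1 (66%, 30 CpG) were also above both medians, and that of SUOX (58.3%, 11 CpG) was below both. CBS had windows above and below the medians. Whether the make-up of a window bears on RNA level was not tested.

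Among the sulfide genes, 1 of 8 was called at an adjusted p under 0.05, SQOR, where 0.767% of all tested genes were called (125 of 16297, of which 61 were higher and 64 lower in RIPK4.si). SQOR is counted only because the list includes it, and since it chose the list, nothing is read from that count or share. The count was 0 without neg.si replicate 2 or without RIPK4.si replicate 1, 2 or 3, when 0, 0, 4 and 0 of all genes were called. Of the other 7 genes, 0 were called by edgeR and 0 by DESeq2, which gave no adjusted p for CBS. Among these 7, 0 had an unadjusted p under 0.05 in edgeR, beside 1768 of 16297 among all tested genes. In all 7 the libraries of both groups overlapped. The share of all tested genes with overlapping groups is not given here, so nothing is read from that overlap. Log2 fold changes of these 7 genes had a median of -0.13, beside -0.02 over all tested genes. Their adjusted p-values in edgeR ran from 0.884 to 0.997.

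Of the oxidizing enzymes after SQOR, ETHE1 (chr19:43506719-43527230, minus strand) had the highest mean CPM in both groups. SUOX was above it in RIPK4.si replicate 1 and, by little, in neg.si replicate 3 (13.13 against 13.06 CPM). ETHE1 was measured at 15.05, 18.0 and 13.1 CPM in neg.si and at 11.2, 21.1 and 14.2 CPM in RIPK4.si. The RIPK4.si libraries spread on both sides of the neg.si range. The log2 fold change was 0.01 with a 95% interval from -0.54 to 0.57, so that a fold between 0.687 and 1.48 fits the data, and without RIPK4.si replicate 2 it was -0.27. ETHE1 transcripts have a GC content of 63.5%, and with the GC trend removed the neg.si levels were 11.8, 17.7 and 17.4 CPM. ETHE1 overlaps the gene ZNF575 on the opposite strand over 1734 bases, 238 of them exonic in both, and the reads were counted without strand. ZNF575 was itself counted at 1.17 ± 0.385 CPM in neg.si and 0.924 ± 0.185 CPM in RIPK4.si. How reads on the shared bases were counted was not examined, so the ETHE1 value may be too high or too low by them.

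SUOX (chr12:55997180-56006641, plus strand), the last step from sulfite to sulfate, was measured at 14.2, 11.9 and 13.1 CPM in neg.si and at 12.6, 12.0 and 11.1 CPM in RIPK4.si. The groups overlapped and both were tight. Its log2 fold change was -0.14, with a 95% interval from -0.51 to 0.24, the narrowest among the 8 genes.

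TST (chr22:37010859-37020183, minus strand) and MPST (chr22:37019635-37029822, plus strand) are related sulfurtransferases that lie head to head, one of the oxidizing and one of the producing side. TST was measured at 8.78, 6.66 and 4.63 CPM in neg.si and at 5.49, 6.54 and 5.72 CPM in RIPK4.si. MPST was measured at 20.7, 15.9 and 9.57 CPM in neg.si and at 13.9, 15.1 and 13.3 CPM in RIPK4.si. For both, neg.si replicate 1 was the highest library and neg.si replicate 3 the lowest, and the RIPK4.si libraries fell between them. Over the 6 libraries the log2 CPM of the pair had a Pearson r of 0.970 (n = 6), the highest of the pairs among the 8 genes. The gene models overlap by 549 bases on opposite strands, 6 of them exonic in both, and counting without strand cannot assign reads there. With the GC trend removed the neg.si levels of TST, whose transcript has 63.7% GC, came to 6.89, 6.57 and 6.19 CPM, with 5.68, 6.181 and 5.65 CPM in RIPK4.si, and the groups then no longer overlapped but were not called (adjusted p 0.683). Those of MPST, with 54.6% GC, still ranged over 18.9, 15.7 and 10.5 CPM. The log2 fold change was -0.18 (95% interval -0.74 to 0.38) for TST and -0.13 (-0.71 to 0.45) for MPST. Without neg.si replicate 1 these were 0.09 and 0.16, and without neg.si replicate 3 they were -0.38 and -0.38, so the direction for both rested on which neg.si library was kept.

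The transsulfuration enzymes differed widely in level. CTH (chr1:70411218-70439851, plus strand), which cleaves cystathionine to cysteine, was measured at 8.69, 7.53 and 8.59 CPM in neg.si and at 8.28, 10.2 and 8.75 CPM in RIPK4.si. These values overlapped, and the log2 fold change was 0.13, with a 95% interval from -0.27 to 0.53. CBS (chr21:43053191-43076943, minus strand), which makes cystathionine, was near the limit of detection, with 19, 9 and 10 counts in neg.si and 18, 8 and 8 in RIPK4.si. The highest library of each group was its replicate 1. CBS is uncertain for a further reason, a near-identical copy on the same chromosome, CBSL, which was counted at 6, 4 and 5 in neg.si and 4, 6 and 4 in RIPK4.si. Of the 20 merged exons of CBS, 15 were found base for base within the CBSL locus, and they hold 66.2% of its exon bases. Its count may be too low if reads that fit both places were dropped, which was not tested. The log2 fold change of CBS was -0.10 with a 95% interval from -1.25 to 1.05, so that folds from 0.421 to 2.07 fit the data at this depth. With the counts of CBS and CBSL added together, a choice made after seeing the data, it was -0.08.

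CDO1 (chr5:115804733-115816659, minus strand), the entry to the taurine branch, was measured at 2.65, 2.63 and 2.33 CPM in neg.si and at 2.49, 2.15 and 2.12 CPM in RIPK4.si. The highest RIPK4.si library was above the lowest neg.si library, so the groups overlapped. The log2 fold change was -0.17, with a 95% interval from -0.67 to 0.32.

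**Figure D2:**
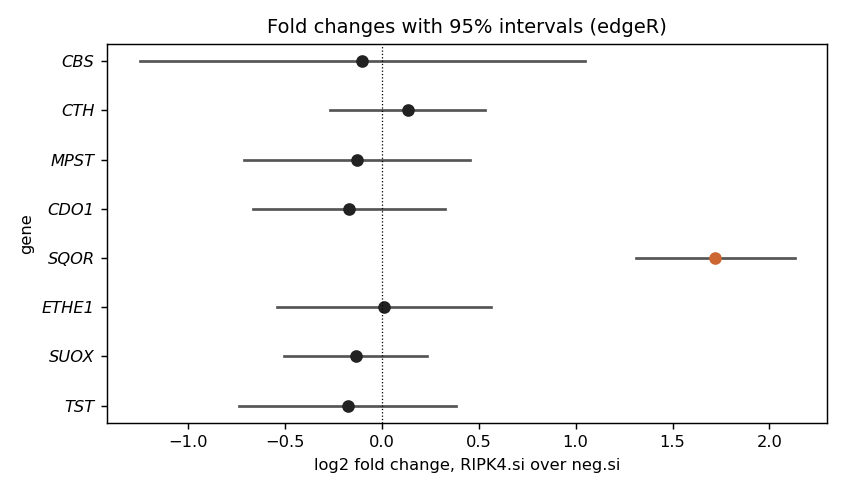
Log2 fold change of RIPK4.si over neg.si for each gene (point) with its 95% interval from the edgeR fit (line). SQOR, whose value chose the list, stands at 1.72, and the intervals of the other 7 genes include 0.

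To compare genes with each other, CPM was divided by the kilobases of merged exons of each gene. On this scale ETHE1 was the highest of the 8 genes in each neg.si library, at 9.66 ± 1.56 CPM per kilobase. TST at 3.56 ± 1.11, CTH at 3.43 ± 0.267, SUOX at 2.61 ± 0.232, SQOR at 2.52 ± 0.247 and MPST at 2.28 ± 0.824 CPM per kilobase formed a middle group in neg.si. Neighbours in that middle order were closer than their SDs, except CTH and SUOX, and the order changed between neg.si libraries. CDO1 at 1.34 ± 0.0945 and CBS at 0.0603 ± 0.0261 CPM per kilobase were last in every library of both groups. In neg.si SQOR ranked 6, 4 and 5 of the 8 genes in replicates 1, 2 and 3.

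In RIPK4.si SQOR reached 8.31 ± 1.25 CPM per kilobase and stood next to ETHE1 at 9.74 ± 3.18. The difference between the pair was smaller than the spread of ETHE1, and SQOR was first in RIPK4.si replicate 1 and second in the others. The order below them was the same in every RIPK4.si library: CTH at 3.76 ± 0.409, TST at 3.15 ± 0.295, SUOX at 2.38 ± 0.159 and MPST at 2.08 ± 0.133 CPM per kilobase. That order depends on the length used. Per kilobase of the longest transcript SUOX was above TST in every RIPK4.si library and above CTH in RIPK4.si replicate 1, and SQOR ranked 5, 2 and 4 in neg.si. The position of MPST in GENCODE release 44 differs from that in the counted table, so its length and the producing sum given below are less certain, as is the part of CBS in that sum and its rank. The ratio of SQOR to ETHE1 per kilobase was 0.252, 0.248 and 0.289 in neg.si and 1.07, 0.736 and 0.857 in RIPK4.si. Per kilobase ETHE1 was well above SQOR in neg.si, and both were at similar levels in RIPK4.si. ETHE1 did not differ detectably, so this shift restates the difference in SQOR that chose the list. The values are RNA levels, and neither protein nor enzyme activity nor sulfide is among the values analysed here.

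The producing genes CBS, CTH and MPST summed to 6.75, 5.52 and 5.02 CPM per kilobase in neg.si and to 5.58, 6.48 and 5.63 in RIPK4.si. The oxidizing genes SQOR, ETHE1, SUOX and TST summed to 19.4, 20.0 and 15.7 CPM per kilobase in neg.si and to 20.04, 28.9 and 21.8 in RIPK4.si. RIPK4.si replicate 2 was the highest for the oxidizing sum, where ETHE1 was also high. The ratio of the oxidizing to the producing sum was 2.87, 3.63 and 3.12 in neg.si and 3.59, 4.46 and 3.88 in RIPK4.si, and RIPK4.si replicate 1 lay below neg.si replicate 2. Per kilobase of the longest transcript the same libraries stood at 4.65 and 4.60, so the overlap of the groups depends on the length used. With SQOR left out of the oxidizing sum the ratio was 2.76 ± 0.317 in neg.si and 2.57 ± 0.358 in RIPK4.si, a difference smaller than the SDs. SQOR made up 12.3%, 14.0% and 15.2% of the oxidizing sum in neg.si and 37.6%, 33.8% and 35.0% in RIPK4.si. The difference in the make-up of the oxidizing RNA was therefore the difference in SQOR that chose the list.

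**Figure D3:**
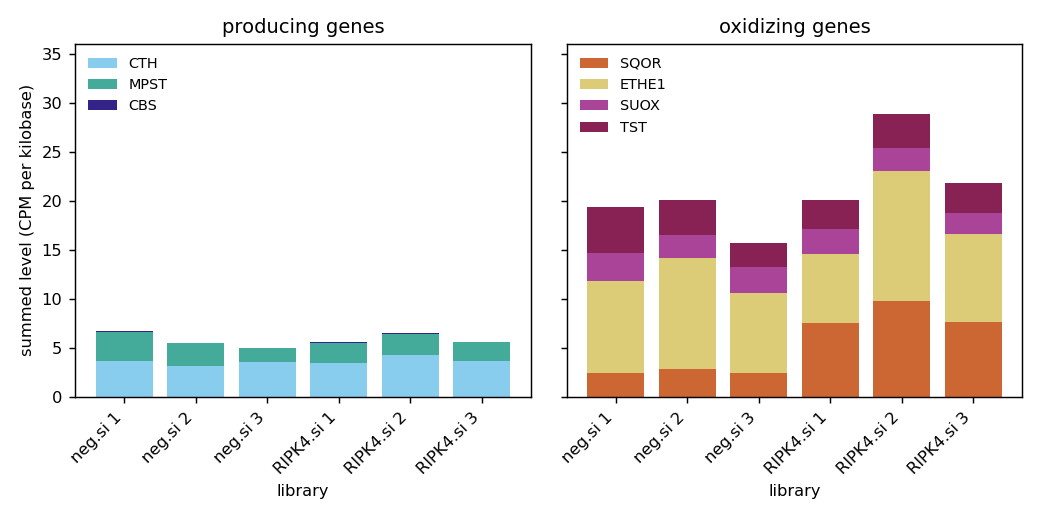
Summed level per kilobase of merged exons in each library, for the genes that produce sulfide (left) and the genes that oxidize it (right), with each gene as a coloured segment of the bar. The SQOR segment makes up 12.3% to 15.2% of the oxidizing bar in neg.si and 33.8% to 37.6% in RIPK4.si, while CBS is barely visible.

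A further 84 genes in 7 lists cover the pathways that feed or receive sulfur and coenzyme Q, and 75 of them were tested. edgeR called 0 of them higher and 0 lower, with 14 at an unadjusted p under 0.05 (1768 of 16297 among all tested genes), and their median log2 fold change was -0.01. DESeq2 called 3 higher, BHMT2, CARS2 and PAPSS2, and 1 lower, SLC26A2, where it called 430 of 24526 genes in all. The same 4 genes were called by edgeR with the GC trend removed, together with COQ8A, where that setting called 484 of 16297 genes. Values that follow are log2 fold changes with SE and the edgeR adjusted p unless another tool is named. From each list the genes with the smallest p-values were named, which largely sets whether their groups overlap. Groups also did not overlap for genes far from being called, such as TSTD3 (edgeR adjusted p 0.784) and DHODH (0.759). The share of all tested genes without overlap is not given here, so separation of the groups is only a description.

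Of the other sulfide and persulfide enzymes, 13 of 14 were tested, with 0 called in either direction and a median of -0.05. CARS2, the mitochondrial cysteinyl-tRNA synthetase that also forms cysteine persulfide, was measured at 33.2, 26.7 and 16.5 CPM in neg.si and at 47.1, 60.9 and 47.8 CPM in RIPK4.si. Every RIPK4.si library was above the neg.si libraries, and neg.si replicate 3 was far below its group. Its log2 fold change was 1.03 ± 0.25, with an adjusted p of 0.121 in edgeR and 0.00732 in DESeq2, from 0.00732 to 0.424 over the alternatives. DAO, D-amino-acid oxidase, had -0.85 ± 0.39 (adjusted p 0.478). TXN, thioredoxin, was the most abundant of the list per kilobase, at 0.35 ± 0.25 (adjusted p 0.732). Without RIPK4.si replicate 2 the log2 fold change of TXN was 0.05.

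In the methionine cycle, which supplies homocysteine, 11 of 13 genes were tested, 0 were called and the median was -0.20. BHMT2, which remethylates homocysteine with S-methylmethionine, was counted at 10, 9 and 19 in neg.si and at 54, 29 and 40 in RIPK4.si. The groups did not overlap, at low counts. Its log2 fold change was 1.74 ± 0.40, with an adjusted p of 0.102 in edgeR and 0.0188 in DESeq2, from 0.0188 to 0.424 over the alternatives. MAT2B, the regulatory subunit of methionine adenosyltransferase, had -0.67 ± 0.17 (adjusted p 0.146), and AHCY, which splits S-adenosylhomocysteine, had the highest level per kilobase and 0.09 ± 0.20 (adjusted p 0.951).

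For cystine uptake and glutathione, 12 of 13 genes were tested, 0 were called and the median was 0.07. The catalytic and modifier subunits of glutamate-cysteine ligase, GCLC and GCLM, had 0.48 ± 0.19 and 0.64 ± 0.27, with adjusted p-values of 0.367 and 0.421. SLC3A2, the heavy chain of the cystine transporter, was the most abundant per kilobase, at 0.23 ± 0.21 (adjusted p 0.824). In the taurine branch, which begins with CDO1, 3 of 6 genes were tested, 0 were called and the median was 0.07. SLC6A6, the taurine transporter, had 0.43 ± 0.14 (adjusted p 0.251) and ADO, cysteamine dioxygenase, had -0.30 ± 0.22 (adjusted p 0.755).

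In the list of sulfite, molybdenum cofactor and sulfate genes, all 14 were tested, 0 were called and the median was -0.03. SUOX needs the molybdenum cofactor, and sulfate is its product. PAPSS2, which activates sulfate for transfer, was measured at 2.55, 2.06 and 3.75 CPM in neg.si and at 5.49, 5.57 and 6.40 CPM in RIPK4.si, with no overlap. Its log2 fold change was 1.06 ± 0.25, with an adjusted p of 0.114 in edgeR and 0.00934 in DESeq2, from 0.00934 to 0.490 over the alternatives. SLC26A2, a sulfate transporter of the plasma membrane, was measured at 64.8, 90.5 and 129.7 CPM in neg.si and at 43.0, 25.2 and 53.5 CPM in RIPK4.si. All RIPK4.si libraries were below the neg.si libraries, among which replicate 3 was the highest. With the GC trend removed the neg.si levels were 75.9, 91.8 and 105.3 CPM. Its log2 fold change was -1.23 ± 0.31, with an adjusted p of 0.135 in edgeR and 0.00372 in DESeq2, from 0.00372 to 0.404 over the alternatives. With the replicate block alone edgeR called SLC26A2 lower (0.0428). PAPSS1, the related enzyme and the most abundant of the list per kilobase, had -0.13 ± 0.15 (adjusted p 0.873).

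Coenzyme Q is the electron acceptor of SQOR. Of its synthesis genes all 14 were tested, 0 were called and the median was 0.04. COQ8A, an atypical kinase of the synthesis complex, had 0.63 ± 0.19 (adjusted p 0.2197, from 0.0213 with the GC trend removed to 0.640 without neg.si replicate 2). COQ10B, a coenzyme Q-binding protein, had -0.99 ± 0.34 (adjusted p 0.293, and -0.59 without neg.si replicate 3). It was called only with the replicate block and the GC trend removed, at -0.94 (adjusted p 0.0241). COQ5, a methyltransferase and the most abundant per kilobase, had -0.16 ± 0.19 (adjusted p 0.882). Of the other dehydrogenases that pass electrons to coenzyme Q, 8 of 10 were tested, 0 were called and the median was -0.07. SDHD and SDHB, subunits of succinate dehydrogenase, had -0.62 ± 0.22 (adjusted p 0.317) and -0.04 ± 0.17 (adjusted p 0.9754), and SDHB had the highest level per kilobase of the list over all 6 libraries, though not in neg.si. GPD2, the mitochondrial glycerol-3-phosphate dehydrogenase, had 0.44 ± 0.17 (adjusted p 0.373).

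**Figure D4:**
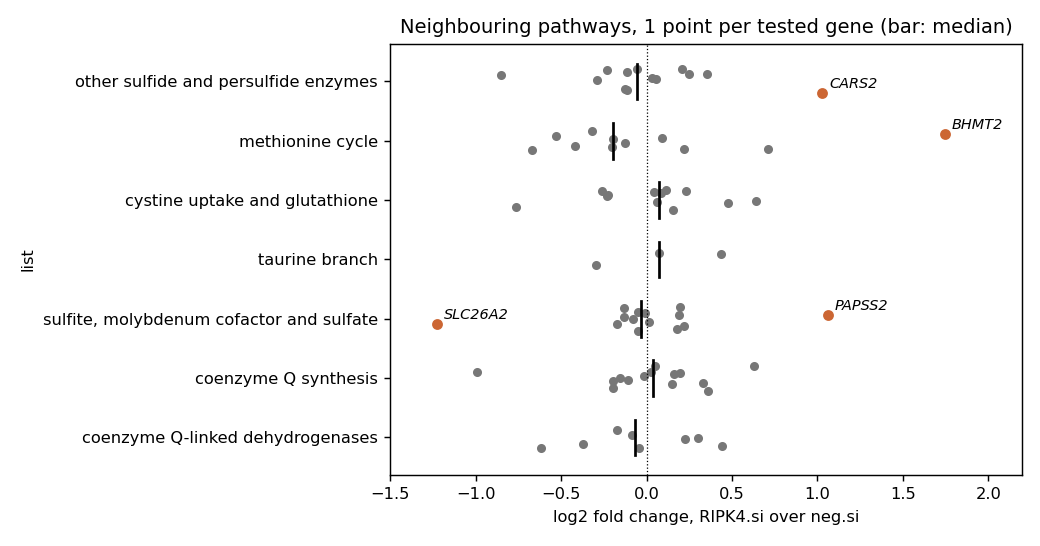
Log2 fold change of RIPK4.si over neg.si for each of the 75 tested genes of 7 neighbouring pathways (points), with the median of each list as a bar. The coloured points are the 4 genes called by DESeq2 but not by the main edgeR fit, BHMT2 at 1.74, PAPSS2 at 1.06, CARS2 at 1.03 and SLC26A2 at -1.23, and the list medians lie between -0.20 and 0.07.

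The genes nearest SQOR on chromosome 15 were not called. BLOC1S6, a subunit of a complex for lysosome-related organelles such as the melanosome, ends 15203 bases before SQOR and had a log2 fold change of -0.12 ± 0.48 (edgeR adjusted p 0.9749). On the other side the nearest tested gene was SEMA6D, a transmembrane semaphorin 1492820 bases away, at -0.56 ± 0.33 (adjusted p 0.638). With a library left out SEMA6D ran from -0.74 to -0.19. Within 2 Mb on either side of SQOR 29 genes were tested, 11 above 0 and 18 below, with a median of -0.06 and a range from -1.36 to 2.11. Of these 1 was called, where 0.767% of all tested genes were and a count this small says nothing of the region. It was GATM, the first enzyme of creatine synthesis, named after its value was seen. It lies 228821 bases from SQOR and had -1.36 ± 0.25 (adjusted p 0.0480, opposite in direction to SQOR), at 2.92 ± 0.395 CPM in neg.si and 1.13 ± 0.131 CPM in RIPK4.si. The adjusted p of GATM ran from 0.00361 to 0.314 over the alternatives, and the call was lost without neg.si replicate 1 (0.0947) or 2 (0.314) and without RIPK4.si replicate 1 (0.235), 2 (0.141) or 3 (0.311). It was also lost with the replicate block (0.0683) and with DESeq2 size factors in edgeR (0.0502). Beside TST and MPST, the nearest tested genes were NCF4, a subunit of the phagocyte oxidase, at 0.87 ± 0.44 (adjusted p 0.542) and KCTD17 at 0.18 ± 0.26 (adjusted p 0.912), and 0 of 66 genes within 2 Mb were called, again beside 0.767% of all.

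**Figure D5:**
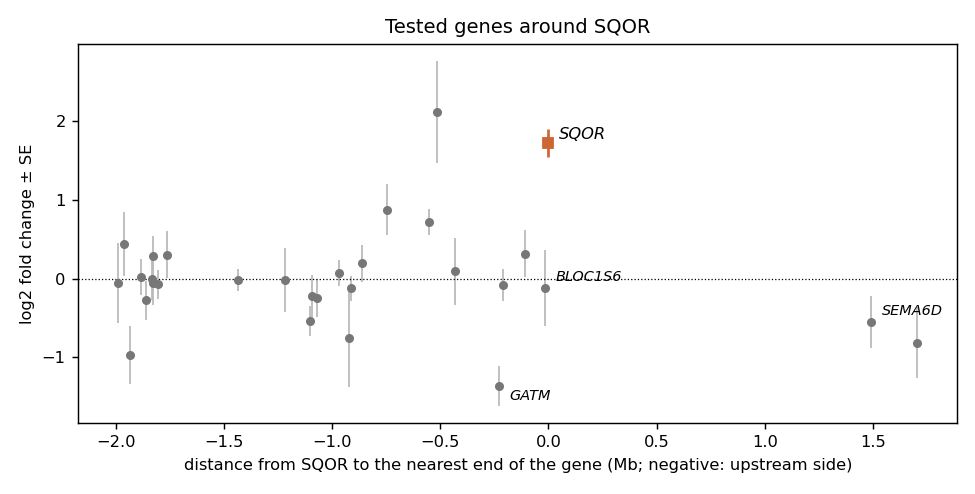
Log2 fold change ± SE of the 29 tested genes within 2 Mb of SQOR (grey) by their distance from it in Mb, with SQOR (square) at 0. SQOR stands at 1.72, its nearest neighbours BLOC1S6 and SEMA6D at -0.12 and -0.56, and GATM at -1.36.

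Genes with a pattern like that of SQOR were ranked by Pearson r with SQOR on log2 CPM over the 6 libraries, among 9206 tested genes with a mean of at least 10 CPM. The libraries fall into the groups compared, so a high r mostly restates a difference between groups, and r is given as a description. The highest were CCN1 (r = 0.998), a matricellular protein at 5.72 CPM in neg.si and 14.8 CPM in RIPK4.si, which passed the 10 CPM limit only through RIPK4.si, MAST2 (r = 0.997), a kinase, TTC31 (r = 0.997), YBX3 (r = 0.997), a cold shock domain protein, and CCN2 (r = 0.997), a matricellular protein related to CCN1. CCN1, YBX3 and CCN2 were called higher, which their choice by likeness to SQOR largely sets, so the calls are a description of them. They stood at log2 fold changes of 1.37 ± 0.18, 1.30 ± 0.14 and 1.24 ± 0.14 with edgeR adjusted p-values of 0.0196, 0.0102 and 0.0102. Over the alternatives these reached 0.174, 0.129 and 0.129 without neg.si replicate 2, and the calls also ended without RIPK4.si replicate 1 (0.0992, 0.0940 and 0.0940), 2 (0.0942, 0.0593 and 0.0593) or 3 (0.129, 0.0816 and 0.1). MAST2 (0.54 ± 0.14, adjusted p 0.134) and TTC31 (0.20 ± 0.14, adjusted p 0.727) were not called by edgeR, and DESeq2 called MAST2 (adjusted p 0.0382). The lowest were MAPKAPK5 (r = -0.997), a kinase, IKBKB (r = -0.995), a kinase of the NF-kB pathway, KCTD10 (r = -0.994), a ubiquitin ligase adaptor, GPR161 (r = -0.994), a receptor of the cilium, and DAPK1 (r = -0.992), a kinase. Of these edgeR called KCTD10 lower, at -0.98 ± 0.15 (adjusted p 0.0329). That call was lost without neg.si replicate 1 (0.0516) or 2 (0.237) and without RIPK4.si replicate 1 (0.1705), 2 (0.128) or 3 (0.215). Choice by r with SQOR largely sets the calls of MAST2 and of the genes with the lowest r as well. These calls, in either tool, are likewise only a description. DESeq2 called KCTD10 and also IKBKB (adjusted p 0.0388) and GPR161 (adjusted p 0.0458) lower, where edgeR gave 0.128 and 0.132. With the GC trend removed edgeR also called IKBKB (0.0340) and GPR161 (0.0412), but not with the replicate block added (0.0553 and 0.0630). The other sulfide genes had r with SQOR from -0.681 for CDO1 to 0.547 for CTH (n = 6).

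Markers of the melanocyte lineage were all present, 8 of 8, with TYR the most abundant at 1129 CPM on average. They summed to 4012, 3773 and 3574 CPM in neg.si and to 2674, 2759 and 2635 CPM in RIPK4.si. The sum was lower in every RIPK4.si library, and PMEL, a melanosome protein, was the 1 of 8 that edgeR called, against 0.767% of all tested genes, at a log2 fold change of -1.30 ± 0.15, named after its values were seen. Its edgeR adjusted p was 0.0111 and reached 0.129 without neg.si replicate 2, and the call also ended without RIPK4.si replicate 1 (0.0992), 2 (0.0738) or 3 (0.121). DESeq2, with 430 of 24526 genes called in all, called PMEL and also DCT (adjusted p 0.00361) and TYR (adjusted p 0.0417) lower. The genes did not move alike, with log2 fold changes of -0.73 for DCT, -0.57 for TYR, -0.48 for S100B, -0.15 for SOX10, 0.04 for MITF, 0.06 for MLANA and 0.36 for TYRP1. Whether the sum moved with SQOR was not tested. Leukocyte markers summed to between 1.81 and 2.62 CPM, with CD14 the most abundant at 1.22 CPM, and endothelial markers to between 1.07 and 1.56 CPM, with PECAM1 at 0.775 CPM. Of the fibroblast markers COL1A2 was at 736 CPM, while COL1A1 and DCN, which mark fibroblasts more closely together, were too low to be tested, at 0.152 and 0.0422 CPM in neg.si. Fibroblast sums ran from 512 to 1041 CPM and overlapped between groups. Keratinocyte markers summed to 11.9, 10.5 and 10.6 CPM in neg.si and to 14.4, 16.3 and 12.2 CPM in RIPK4.si, so that all RIPK4.si sums lay above the neg.si sums, nearly all of it KRT10 at 12.2 CPM on average, while KRT5, KRT14 and TP63 were too low to be tested. Whether this moved with SQOR was not tested.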

How the data were processed

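The authors sequenced poly(A) libraries as read pairs on a BGISEQ-500. Reads were trimmed by Cutadapt, TopHat placed them on the genome (GRCh38.p13), and HTSeq assigned the pairs to genes without regard to strand. The deposited counts are whole read pairs per gene, listed where a gene had 6 or more in total. The authors' normalized signal is the same counts, each library divided by its own DESeq2 size factor, and it served only as a check of the counts. The authors' own columns of fold changes and p-values were not used.

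The test was run on the counts in edgeR 4.0.16, under R 4.3.3 (filterByExpr, TMM, quasi-likelihood test of RIPK4.si against neg.si, Benjamini-Hochberg adjustment over 16297 genes). A gene was called at an adjusted p under 0.05. The SE was the log2 fold change divided by the square root of F. DESeq2 1.42.0, other normalizations and filters, a replicate block, removal of each library's GC trend (lowess, span 0.3) and each library left out in turn were alternatives. The code was also run on simulated data. Lengths, GC content and overlaps came from GENCODE release 44 on GRCh38, where 24416 of the 24526 gene identifiers were found and 19683 had the same position, so lengths and GC content of the others are less certain, and promoters from RefSeq (GRCh38.p14). Coordinates are those of the deposited table. Python 3.11.15 was used with numpy 2.4.6, pandas 2.3.3, scipy 1.17.1 and matplotlib 3.10.9.

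Members and lists were chosen with earlier results of these data known. Named are the 8 members, RIPK4, every called gene of a wider list or otherwise the 2 with the smallest p-values and the highest per kilobase, the 5 genes most and 5 least correlated with SQOR, and the nearest tested neighbours of SQOR and of TST with MPST. Genes outside this rule are named as such or as markers.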

Additional observations from a re-analysis of the deposited data

How the results depend on the processing

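The number of genes called over the whole table was 125. It was 430 with DESeq2, 484 with the GC trend removed and 423 with the replicate block and the GC trend removed, and from 0 to 295 with a library left out. The replicate block alone gave 131. Libraries were not treated as paired. Deviations of same-numbered libraries had correlations of -0.242, 0.251 and 0.346, and those of differently numbered libraries ran from -0.498 to 0.413, so whether the numbers pair them was not settled. The number of sulfide genes called was 1, and from 0 to 1 with a library left out. The log2 fold change of SQOR lay between 1.60 and 1.82 under every alternative run. Wider list genes called numbered 0 with edgeR, 4 with DESeq2, 1 with the replicate block (SLC26A2), 5 with the GC trend removed, 6 with the replicate block and the GC trend removed (COQ10B added), and from 0 to 2 with a library left out. The cause was not tested, other than that leaving out a library leaves fewer samples. Of the other 7 sulfide genes 0 were called where an adjusted p was given, with a lowest of 0.373. CBS had none in DESeq2 and was not tested with at least 10 counts in every library. Log2 fold changes turned sign for ETHE1 (-0.0155 with library totals alone, -0.0231 with the replicate block, -0.0409 with the GC trend removed, -0.0558 with both, and from -0.266 to 0.211 with a library left out). With a library left out they also did for TST (-0.381 to 0.0852), CBS (-0.601 to 0.325), MPST (-0.376 to 0.158), AHCY (-0.0782 to 0.318), SDHB (-0.167 to 0.0658, and 0.00652 with the replicate block and the GC trend removed), BLOC1S6 (-0.413 to 0.398) and KCTD17 (-0.0783 to 0.354). With the longest annotated transcript in place of merged exons, the ratio of oxidizing to producing genes was 4.05 in neg.si and 5.18 in RIPK4.si, against 3.21 and 3.98. These values come from 1 cell line, 1 siRNA, 1 time point and 3 libraries a group, and off-target effects of the siRNA were not separated from loss of RIPK4. The neg.si libraries differed with GC content, and the calls rested on most of the libraries. For the 7 genes without a detectable difference the intervals give what could have been missed, widest for CBS. Counts ignored strand, which touches ETHE1, TST and MPST. RNA levels do not give protein or sulfide.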
